A study of Mus musculus with 15 samples.

Results

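The 9 habenula neuron genes Tac2, Chrna3, Chrnb4, Chrnb3, Gpr151, Nwd2, Pou4f1, Scube1 and Gpr149, out of 29659 genes in each library, were followed through 15 bulk RNA-seq libraries of mouse thalamus. The genes were listed by name. They were chosen by their variation between these libraries and their weight on the main component of that variation, so their spread and their movement together are given as a description without a test. All mice were 4.5 months old and described as carrying human APOE4 in both copies in place of mouse Apoe, which the mouse Apoe value of 1 ELKO library went against, and the right thalamus was dissected after perfusion. EL mice (n = 3) had APOE4+/+ with Lilrb4a, a gene of an inhibitory receptor of myeloid cells, intact, and ELKO mice (n = 3) were APOE4+/+ with Lilrb4a-/-. 5EL mice (n = 5) and 5ELKO mice (n = 4) were the matching genotypes with the 5xFAD transgenes, which drive mutant human amyloid precursor protein and presenilin in neurons from the Thy1 promoter. The labels gave neither sex nor batch, and the study's legends say that its experiments not split by sex used males.

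The habenula is a small paired nucleus of the epithalamus that lies beside the third ventricle, directly above and medial to the thalamus, so it sits at the edge of a thalamic dissection. Its medial part holds glutamatergic neurons that also release acetylcholine ventrally and the tachykinin substance P dorsally. These axons run in the fasciculus retroflexus to the interpeduncular nucleus, where nicotinic receptors containing the alpha3 and beta4 subunits are dense and take part in nicotine aversion and withdrawal. Pou4f1 encodes the POU-domain transcription factor Brn3a, which habenular neurons need to differentiate. Tac2 encodes the precursor of neurokinin B, a tachykinin. Chrna3, Chrnb4 and Chrnb3 encode nicotinic acetylcholine receptor subunits. Gpr151 and Gpr149 encode orphan G-protein-coupled receptors, and Gpr151 protein is found along habenular axons. Scube1 encodes a secreted and cell-surface glycoprotein with CUB and EGF-like domains, and Nwd2 a protein with NACHT and WD repeat domains.

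The upstream windows are shown for the transcription factor, the peptide precursor and a receptor subunit. They are given as a description, and a link between these sequences and the movement of the genes across libraries was not tested. RefSeq windows on GRCm38.p6 matched 6 of the 9 genes. Chrnb3, Gpr149 and Gpr151 were not matched. Each sequence is the 250 bases before the annotated start, read 5′ to 3′ on the strand of the gene, with the E-box letters CAGCTG and the GC-box letters GGGCGG or CCGCCC in capitals. The Tac2 window is chr10:127724228-127724477 (plus strand), the Chrna3 window chr9:55026563-55026812 (minus strand) and the Pou4f1 window chr14:104468000-104468249 (minus strand).
Tac2: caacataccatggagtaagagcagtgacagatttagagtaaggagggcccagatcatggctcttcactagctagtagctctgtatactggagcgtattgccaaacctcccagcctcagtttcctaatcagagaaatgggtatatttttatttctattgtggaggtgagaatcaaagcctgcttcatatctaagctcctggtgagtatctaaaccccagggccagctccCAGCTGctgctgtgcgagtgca
Chrna3: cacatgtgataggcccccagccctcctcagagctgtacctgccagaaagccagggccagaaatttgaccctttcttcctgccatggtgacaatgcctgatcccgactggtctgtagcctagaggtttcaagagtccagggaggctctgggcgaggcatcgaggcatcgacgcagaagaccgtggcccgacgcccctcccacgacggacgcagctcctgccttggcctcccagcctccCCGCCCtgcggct
Pou4f1: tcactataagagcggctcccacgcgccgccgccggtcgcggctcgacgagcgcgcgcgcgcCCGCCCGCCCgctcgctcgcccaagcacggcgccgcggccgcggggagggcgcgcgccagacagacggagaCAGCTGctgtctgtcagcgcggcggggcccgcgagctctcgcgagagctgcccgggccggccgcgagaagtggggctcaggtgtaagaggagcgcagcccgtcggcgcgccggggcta

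Both strands of all windows were searched for 4 motifs, and neighbouring matches of GGGCGG may overlap, as they do in the Pou4f1 window. CAGCTG stood in 3 of the 6 member windows (Chrnb4, Tac2 and Pou4f1) and in 4271 of 32851 RefSeq windows of the same length. GGGCGG or its reverse stood in 3 of 6 (Chrna3, Pou4f1 and Scube1) and in 32.7% of all windows. The POU-type letters ATTAAT stood in 0 of 6 and 4.39% of all windows, and TATAAA in 0 of 6 and 12.4%. G and C made up 47.2% of the Tac2 window, 63.2% of the Chrna3 window and 78% of the Pou4f1 window, against a median of 52.4% over all windows. No letters searched were shared by all 6 windows.

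In GRCm38, Chrna3 (chr9:55010111-55026562) and Chrnb4 (chr9:55028154-55048779) lay next to each other on the minus strand, 1591 bases apart. The other genes lay on other chromosomes, with Tac2 at chr10:127724478-127731768, Chrnb3 at chr8:27368711-27399730, Nwd2 at chr5:63649102-63810546, Pou4f1 at chr14:104461676-104467999, Scube1 at chr15:83604999-83725021 and Gpr149 at chr3:62529077-62605140. The exons of Nwd2 overlapped those of Gm9954, and because reads were counted without strand the reads of both genes cannot be told apart. The exons of the other 8 members overlapped no other annotated gene.

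Values are on the log2 scale deposited by the study, which draws low genes together, so that differences of low genes are understated. The deposited values give no counts, and the read totals that the study states for the 5EL and 5ELKO libraries were not used here. All 9 members passed the filter, a log2 value of at least 3.32, in 15 of 15 libraries. The deleted gene itself, Lilrb4a, was low throughout. Its values reached 2.33 in the 7 ELKO and 5ELKO libraries and began at 2.34 in the 8 EL and 5EL libraries, so the labels were separated by a narrow margin. Mouse Apoe was 10.9 in ELKO 1 and at most 6.37 in the other 14 libraries, so that library stood apart and went against its label in this gene. Libraries 5EL 1 and ELKO 2 were high in choroid plexus genes, with Ttr at 13.71 and 14.66 against at most 10.3 elsewhere. None of the 105 library pairs held identical values. A bulk library cannot tell fewer habenular neurons in the tissue from less RNA per neuron.

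Compared per kilobase of exon, as the mean log2 value minus log2 of the exon length, Gpr151 was the highest member at 8.32 ± 0.640 (SD, 15 libraries) and Tac2 followed at 7.77 ± 0.716. Then came Nwd2 (6.76), Scube1 (6.45), Chrna3 (6.22), Pou4f1 (6.03) and Chrnb4 (5.73). Gpr149 (4.32 ± 0.210) and Chrnb3 (4.28 ± 0.608) were the lowest. Gpr149 and Chrnb3 did not differ beyond their spread, since their gap was 0.04 ± 0.71 and Gpr149 was the higher in 8 of 15 libraries. The level of Scube1 exceeded that of Chrna3 in 12 of 15 libraries, and every other member from Gpr151 to Chrnb4 exceeded its next neighbour in 13 to 15.

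Pou4f1, the transcription factor, read 7.33, 9.28, 8.22, 8.44 and 9.07 in 5EL 1 to 5 and 8.65, 7.81, 8.79 and 7.82 in 5ELKO 1 to 4. It read 8.46, 8.08 and 6.97 in EL 1 to 3 and 8.79, 9.01 and 7.03 in ELKO 1 to 3. The third EL library, the third ELKO library and 5EL 1 were low, 5EL 2 was the highest, and all 4 groups overlapped.

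Tac2 had log2 values of 6.93, 9.19, 8.84, 8.33 and 8.82 in the 5EL libraries and 8.60, 7.87, 8.44 and 8.08 in the 5ELKO libraries. Without the transgenes it had 8.32, 8.15 and 6.75 in EL and 8.66, 8.97 and 7.49 in ELKO. The same 3 libraries were low for the peptide precursor, and its range of 2.44 was a 5.44-fold span of levels.

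The nicotinic subunit gene Chrna3 stood at 7.59, 9.67, 8.76, 8.73 and 9.40 in 5EL, and at 8.80, 8.10, 8.92 and 8.37 in 5ELKO. It stood at 8.92, 8.78 and 7.24 in EL and at 9.07, 9.41 and 7.49 in ELKO. Its neighbour Chrnb4 gave 6.62, 8.78, 7.78, 7.59 and 8.21 in 5EL, 7.86, 7.06, 7.99 and 7.38 in 5ELKO, 8.02, 7.71 and 6.40 in EL, and 8.07, 8.40 and 6.55 in ELKO. Both subunit genes were lowest in EL 3 and highest in 5EL 2, and neither separated any pair of groups. Chrnb3, on another chromosome, gave 6.05, 7.88, 7.04, 7.02 and 7.69 in 5EL, 7.19, 6.61, 7.14 and 6.49 in 5ELKO, 7.06, 7.02 and 5.99 in EL, and 7.46, 7.63 and 6.02 in ELKO. The order of libraries was again led by 5EL 2 and closed by EL 3.

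The receptor gene Gpr151 was measured at 8.52, 10.08, 9.38, 9.29 and 9.70 in 5EL, 9.19, 8.87, 9.67 and 8.82 in 5ELKO, 9.35, 8.96 and 7.61 in EL, and 9.45, 9.87 and 8.40 in ELKO. Nwd2 was measured at 9.16, 11.27, 10.20, 10.38 and 11.06 in 5EL, 10.48, 9.68, 10.64 and 9.82 in 5ELKO, 10.47, 10.12 and 8.24 in EL, and 10.91, 10.95 and 8.75 in ELKO. Scube1 was measured at 8.63, 11.004, 9.78, 9.88 and 10.64 in 5EL, 10.18, 9.20, 10.34 and 9.40 in 5ELKO, 10.26, 9.67 and 7.97 in EL, and 10.43, 10.65 and 8.17 in ELKO. Scube1 and Nwd2 spanned the widest ranges of the members, 8.21-fold and 8.13-fold, and Gpr151 spanned 5.56-fold, with overlapping groups throughout.

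Gpr149 read 6.20, 6.21, 6.24, 6.63 and 6.27 in 5EL and 6.37, 6.28, 6.32 and 6.27 in 5ELKO. It read 6.64, 6.68 and 6.90 in EL and 6.36, 6.42 and 6.60 in ELKO. The 3 EL libraries were the 3 highest of the 15, and EL 3, where the other 8 members were lowest, was the highest of all.

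**Figure D1:**
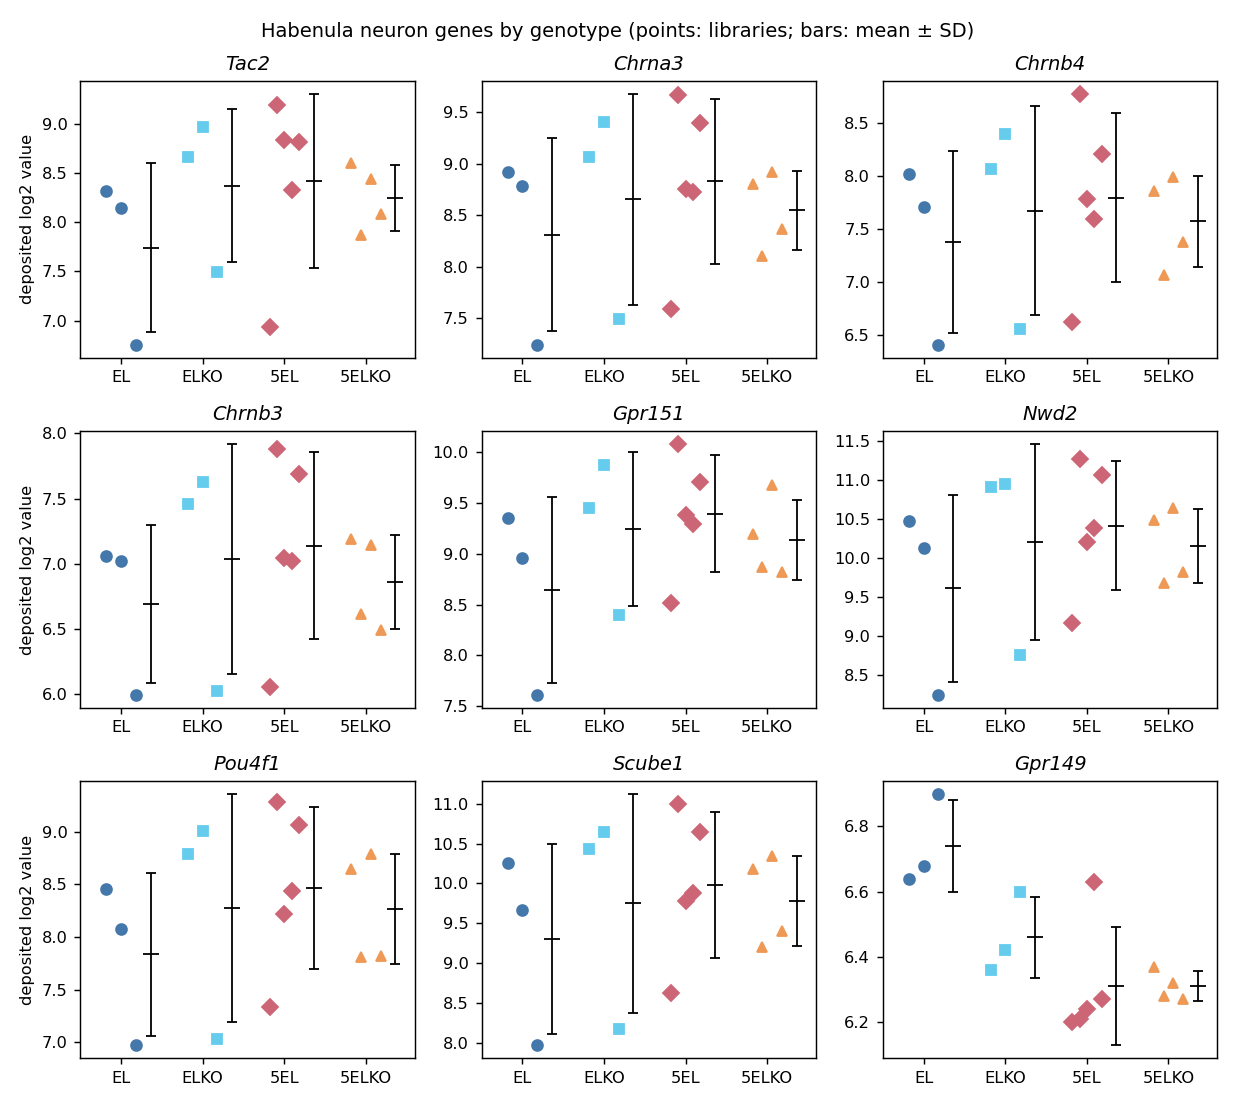
Log2 value (y axis) of each of the 9 genes in the 4 genotype groups (x axis). Points are libraries and bars give the mean ± SD. The groups overlap for the 8 genes other than Gpr149, whose 3 EL libraries (6.64 to 6.90) lie above every other library (6.20 to 6.63).

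The 8 genes other than Gpr149 rose and fell together from library to library. Over the 15 libraries, Pearson's r between them was 0.925 to 0.993 in 28 pairs and Spearman's rho 0.882 to 0.996. Without the 2 libraries farthest from the median of the first gene r was 0.906 to 0.992, and with group means subtracted 0.920 to 0.996. The genes were chosen for moving together in these libraries, so no test applies. Every one of the 8 was lowest in EL 3 and highest in 5EL 2, and ELKO 3 and 5EL 1 filled ranks 2 and 3 for each.

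Gpr149 did not join them. Its r with the 8 ran from -0.53 to -0.35, and from -0.49 to 0.13 without the 2 farthest libraries. Its SD over libraries was 0.210 and its range 0.70, a 1.62-fold span. These values go against grouping Gpr149 with the other 8 in this tissue, and it is described separately from here on.

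The SD of the 8 genes over the 15 libraries was 0.608 to 0.919, against a median of 0.0975 over 15804 genes, and their places by SD were 9 (Scube1), 10 (Nwd2), 24 (Pou4f1), 25 (Chrna3), 27 (Tac2), 29 (Chrnb4), 42 (Gpr151) and 51 (Chrnb3). Gpr149 was at place 1044. Most of the spread was inside the groups. For the 8 genes the SD within groups was 0.649 to 0.996, while the SD of the 4 group means was 0.178 to 0.343. For Gpr149 the order was the other way round, 0.136 within groups and 0.201 between group means.

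**Figure D2:**
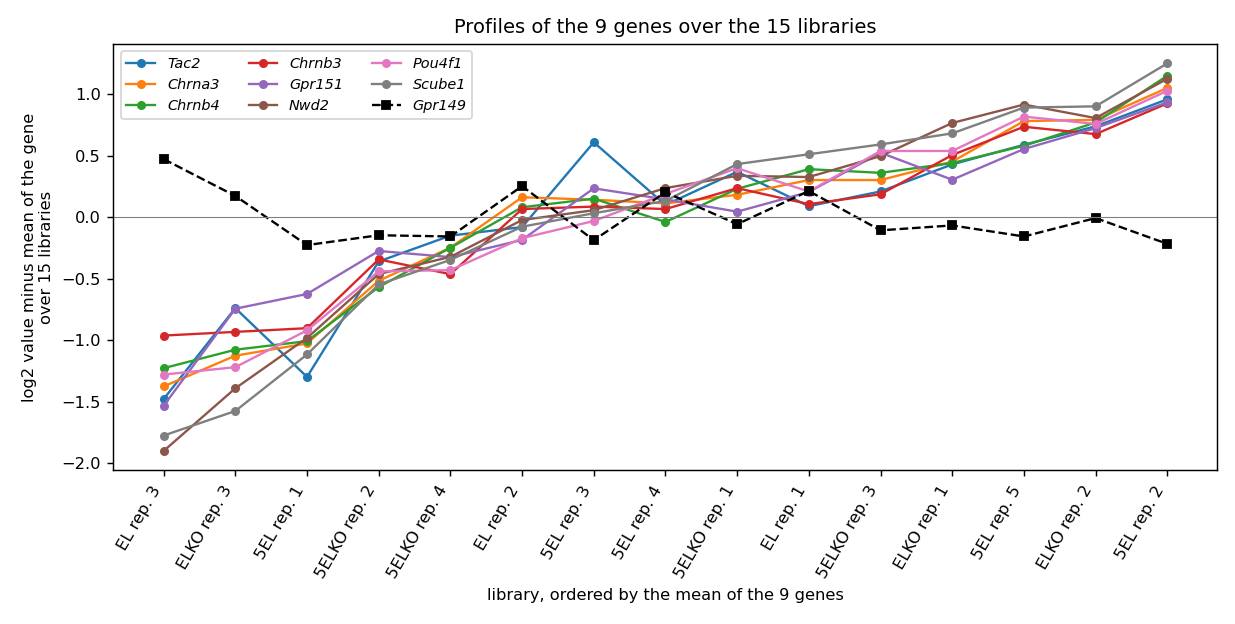
Log2 value minus the mean of the gene over 15 libraries (y axis) for each of the 9 genes (lines), with libraries ordered by the mean of the 9 genes (x axis). 8 lines climb together from EL 3 to 5EL 2, and the line of Gpr149 stays within a range of 0.70.

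A principal component analysis of the 500 most variable genes put 50.7% of the variance on component 1, where the 8 genes had loadings of 0.066 to 0.113. By size of loading, Scube1 was in place 3, Nwd2 in place 4 and Chrnb3 in place 51. Gpr149 was not among the 500. Libraries EL 3 and ELKO 3 scored lowest on this component at -19.7 and -10.3, followed by EL 2 at -3.91, and the other 12 lay between -0.44 and 7.58. Library 5EL 1, low for all 8 genes, scored -0.15 there and lay at the end of component 2 (18.4% of the variance) at -10.8, beside ELKO 2 at -9.04, the other library high in choroid plexus genes. On component 3, with 7.66% of the variance, Scube1, Pou4f1, Chrna3 and Chrnb3 held places 2, 4, 5 and 6.

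The mean level of the 8 genes, each centred on its own mean, condensed these profiles. It was -1.44 in EL 3, -1.10 in ELKO 3 and -0.98 in 5EL 1, and from -0.44 to 1.06 in the other 12 libraries. The group means were 0.22 ± 0.78 (SD, n = 5) in 5EL, -0.02 ± 0.42 (n = 4) in 5ELKO, -0.40 ± 0.91 (n = 3) in EL and 0.06 ± 1.02 (n = 3) in ELKO. The spread inside each group was wider than the distance between any 2 neighbouring group means.

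Among 15795 other genes, 59 had r above 0.9 with the mean centred level of the 9 members and 0 had r under -0.9. The 10 most alike over the 15 libraries were Lrrc55 (r = 0.994), an auxiliary subunit of BK potassium channels, Slc5a7 (0.988), the high-affinity choline transporter, Syt6 (0.987), a synaptotagmin, Chat (0.981), which makes acetylcholine, Htr5b (0.981), a serotonin receptor, Pde2a (0.979), a cyclic nucleotide phosphodiesterase, Robo3 (0.978), an axon guidance receptor, Tspan18 (0.977), Gm13713 (0.975) and Vav2 (0.974). Without the 2 farthest libraries their r stayed between 0.951 and 0.992. Lrrc55 ran from 8.03 in EL 3 to 10.5 in 5EL 2, the same extremes as the 8 members.

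The genes that handle acetylcholine followed the members closely. Chat, Slc18a3 (the vesicular acetylcholine transporter) and Slc5a7 had r of 0.981, 0.956 and 0.988 with the member level, and each was lowest in EL 3 and highest in 5EL 2. Ache, which breaks acetylcholine down and is made by many neurons, was higher at 11.1 and had r = 0.45. Slc5a7 had group means of 8.01 ± 0.679 (SD, n = 5) in 5EL, 7.85 ± 0.330 (n = 4) in 5ELKO, 7.54 ± 0.879 (n = 3) in EL and 7.79 ± 1.02 (n = 3) in ELKO.

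Other nicotinic receptor subunits shared the pattern in part or not at all. Of 13 listed, 11 were in the files and 6 passed the filter, and 0 of the 6 had r above 0.8. Above 0 were 5 of the 6, the highest being Chrnb1 at 0.65, and their mean level had r = 0.42. Chrna4 and Chrnb2, the subunits of the common brain receptor, ranged over only 0.50 and 0.27 across libraries, against 0.35 for Chrnb1 and 2.43 for Chrna3. Chrna5, the cluster neighbour of Chrna3 and Chrnb4, was listed below the filter at 1.62 to 1.71, so its r of 0.81 rests on a range of 0.10.

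Among the tachykinin genes, Tacr1, the substance P receptor, had r = 0.93 and ranged over 1.68 on the log2 scale. Tac1, the precursor of substance P, had r = 0.83 and ran from 6.26 to 7.78, and Tacr3, the receptor for neurokinin B, had r = 0.38. Tac4 and Tacr2 were below the filter.

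Of 12 other genes known from the medial habenula, 11 passed the filter and 5 had r above 0.8. Nr4a2, a nuclear receptor transcription factor, had r = 0.96 and ran from 7.31 to 9.32, Kctd8, an auxiliary subunit of GABA-B receptors, had r = 0.90 and Gng8, a G-protein gamma subunit, had r = 0.87. Calb2, abundant in several thalamic nuclei too, had the widest range of the list (2.36) with r = 0.47. In the same list r was 0.74 for Adcyap1, 0.66 for Isl1, 0.29 for Chrna6, -0.03 for Slc17a7 and -0.43 for Kctd12. Of 7 lateral habenula genes, 0 had r above 0.8, and their mean level had r = 0.18 with the members. The lateral list holds genes that the thalamus also expresses, such as Slc17a6 at 13.7 to 14.0.

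Markers of some tissues near the habenula also moved with the members, while those of midbrain and choroid plexus did so little. The mean of 8 hippocampal genes had r = 0.907. Of the 8, 2 had r above 0.8, Neurod1 and Fibcd1 at 0.92 each, and the rest had 0.13 (Tdo2) to 0.71 (Wfs1). The hippocampal mean ran from 6.65 to 7.23 in EL and from 6.98 to 7.42 in ELKO. In 5EL it ran from 7.07 to 7.46 and in 5ELKO from 7.11 to 7.38. The mean of 8 GABAergic genes had r = 0.791, which dropped to 0.572 without the 2 farthest libraries. It ranged from 7.75 to 9.26 in EL, from 8.51 to 9.47 in ELKO, from 8.38 to 9.94 in 5EL and from 9.38 to 10.1 in 5ELKO. The corresponding r was 0.794 for striatum, 0.717 for ependyma, 0.706 for cortex, 0.555 for hypothalamus, 0.221 for midbrain and 0.085 for choroid plexus. Without the 2 farthest libraries it was 0.614 for striatum, 0.416 for ependyma, 0.364 for cortex, 0.364 for hypothalamus and 0.862 for hippocampus. For midbrain it was then 0.062 and for choroid plexus -0.169. Some of these markers ranged wider than Scube1 (3.04), such as Oxt (4.18), Gad1 (3.30) and Gad2 (3.19), while most did not.

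The 12 thalamic relay genes ran the other way with r = -0.703, or -0.48 without the 2 farthest libraries. Ramp3 and Prkcd were highest in EL 3 and lowest in 5EL 2, with r of -0.76 and -0.70. The exceptions were Zic1 (r = 0.81) and Amotl1 (r = 0.13). The relay genes had r = 0.703 with Gpr149. All 5 pineal genes in the files were below the filter in every library. The part of these tissues in the spread of the members was not tested.

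**Figure D3:**
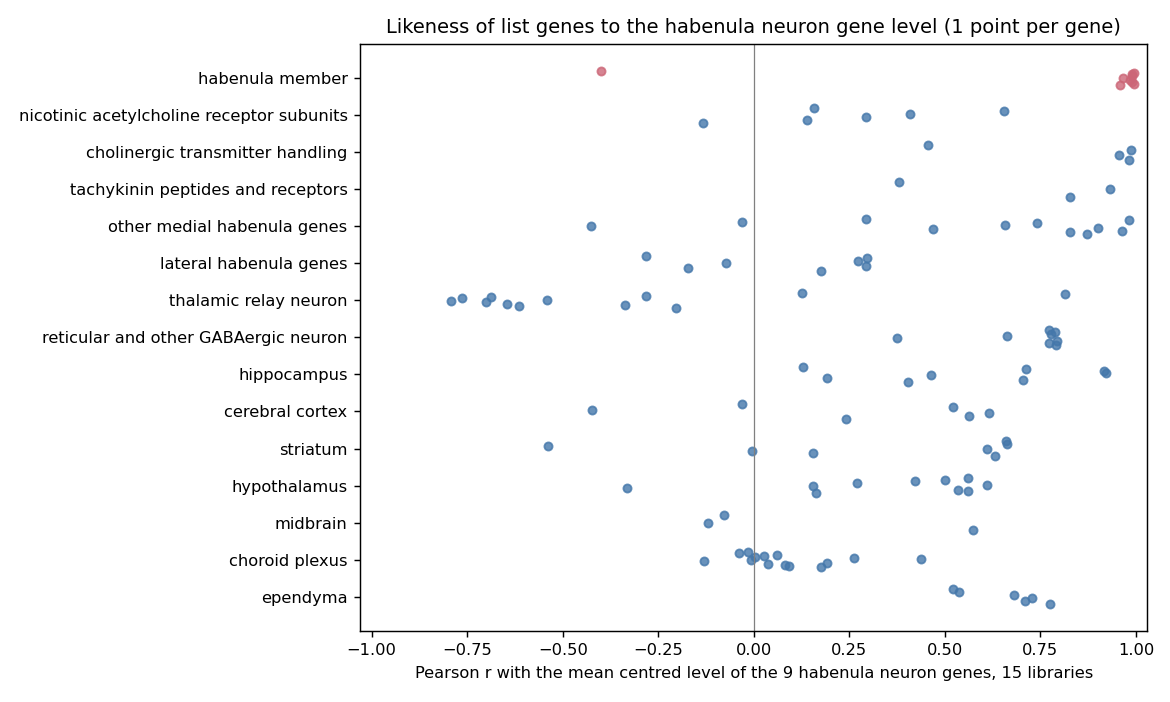
Pearson's r over 15 libraries (x axis) between each gene of a marker list and the mean centred level of the 9 members, with 1 point per gene and lists on the y axis. Chat, Slc18a3 and Slc5a7 lie above 0.95, and most thalamic relay genes lie below 0.

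For the deletion of Lilrb4a in mice with amyloid, 5ELKO was compared with 5EL over 9 libraries. Of the 9 members, 0 passed an adjusted p of 0.05 in limma, where 0.0191% of 15743 genes did, and 0 had an unadjusted p under 0.05, where 2.49% of genes did. All 8 genes had a mean below 5EL by a log2 difference of -0.28 to -0.18 (SE 0.260 to 0.400, adjusted p = 0.999). Their 95% intervals reached from -1.08 to 0.66, so the libraries do not settle a change of that size in either direction. The groups overlapped for all 9, while 0.603% of genes were higher and 0.457% lower in every 5ELKO library. Gpr149 differed by 0.00 (SE 0.0836, interval -0.18 to 0.18). The members' median was -0.22, against 0.00 over all genes.

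The size and direction of these values moved with single 5EL libraries. Without 5EL 2, the highest library for all 8 genes, their differences were -0.089 to 0.047, and 4 of them (Tac2, Chrnb4, Pou4f1 and Scube1) were above 0. Without 5EL 1, which was low for the 8 genes and high in choroid plexus genes, the 4 other 5EL libraries had member levels of 0.12 to 1.06 against -0.44 to 0.40 in 5ELKO. The difference of the 8 then was -0.59 to -0.47, and 5 of the 9 members (Tac2, Chrna3, Chrnb3, Gpr151 and Nwd2) had an unadjusted p under 0.05 in limma, where 3.07% of genes did. Tac2 differed by -0.55 (SE 0.180, limma adjusted p = 0.9997). The 8 genes were chosen for moving together, so the 5 calls are not separate observations. No member passed the adjustment over all genes, and the part of the choroid plexus signal was not tested.

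For the deletion without amyloid, the 8 genes were higher in ELKO than in EL by 0.30 to 0.63 on the log2 scale, with standard errors of 0.453 to 0.694 (limma, adjusted p = 0.998). Libraries with the same number varied together in these groups, and with the number as a block the standard errors were 0.310 to 0.465 and the adjusted p 0.774 to 0.919. The labels give no pairing, and the pairs were taken from this shared movement in the same data. Within the pairs, all 8 genes were higher in ELKO in 3 of 3. The differences were 0.04 to 0.44 in pair 1, 0.61 to 0.99 in pair 2 and 0.03 to 0.79 in pair 3. The 8 genes move together, so these are not 8 separate observations. How many of all genes kept their direction in 3 of 3 pairs was not counted. Nwd2 was higher by 0.44, 0.83 and 0.51 and Tac2 by 0.34, 0.83 and 0.74. Gpr149 was lower in 3 of 3, by -0.28, -0.26 and -0.30. Of the 9 members, 0 passed the adjusted threshold, where 0% of 15804 genes did, and 1 (Gpr149) had an unadjusted p under 0.05, where 2.35% of genes did. Gpr149 was lower in ELKO by -0.28 (SE 0.105, 95% interval -0.50 to -0.05, limma adjusted p = 0.998). The 3 ELKO libraries lay below the 3 EL libraries, as they did for 2.53% of genes. EL 3 and ELKO 3 were the lowest libraries for the 8 genes in both groups, and the other 4 had levels of -0.03 to 0.77. With this pair left out the 8 differences were 0.37 to 0.64. Without EL 3 alone they were -0.21 to 0.14, without ELKO 2 alone -0.07 to 0.33, and without ELKO 3 alone 0.85 to 1.32, with Gpr151, Nwd2 and Gpr149 at an unadjusted p under 0.05. Without ELKO 1, the library high in mouse Apoe, they were 0.10 to 0.49. The share of all genes with an unadjusted p under 0.05 in the fit without ELKO 3 is not given. The unadjusted p of Gpr149 was above 0.05 when EL 3, ELKO 1 or ELKO 2 was left out.

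For amyloid with Lilrb4a intact, the 8 genes were higher in 5EL than in EL by 0.42 (Chrnb4) to 0.81 (Nwd2), with standard errors of 0.405 to 0.621 and adjusted p of 0.633 to 0.763 in limma. Gpr151 had the smallest unadjusted p of the 8, 0.0822, at a difference of 0.75 (SE 0.405). 0 members passed the adjusted threshold, where 0% of genes did, and 1, Gpr149, had an unadjusted p under 0.05, where 7.70% of genes did. Without EL 3 the differences of the 8 were -0.07 to 0.24, and without 5EL 1 they were 0.71 to 1.12, with Tac2, Gpr151 and Gpr149 at an unadjusted p under 0.05. The share of all genes with an unadjusted p under 0.05 in the fit without 5EL 1 is not given. The members' median in all libraries was 0.63, against 0.00 over all genes.

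Gpr149 was lower in 5EL than in EL by -0.43 (SE 0.0944, 95% interval -0.63 to -0.23). Its unadjusted p of 0.000389 was in place 3 of 15804 genes in limma, yet the adjusted p was 0.630. Over the alternatives run, the limma adjusted p ran from 0.0606 without EL 1 to 0.9998 without EL 3. All 5 libraries of 5EL lay below all 3 of EL, as they did for 1.59% of genes. The mean level of the relay neuron genes had r = 0.703 with Gpr149. Of the 12, 7 had an unadjusted p under 0.05 in limma here, where 7.70% of all genes did in either direction. These 7 were all lower in 5EL, and each was highest in the single library EL 3. As markers of 1 cell type they need not be separate observations, and 0 of the 12 had an adjusted p under 0.05. The part of the relay genes in the Gpr149 difference was not tested.

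For amyloid without Lilrb4a, the 8 genes differed between 5ELKO and ELKO by -0.17 to 0.03 (SE 0.424 to 0.649, limma adjusted p = 0.999). 0 members passed, where 0% of genes did, and 0 had an unadjusted p under 0.05, where 2.37% of genes did. Gpr149 was -0.15 (SE 0.0987, limma adjusted p = 0.999). The groups overlapped for all 9 genes, while 1.78% of genes were higher and 1.61% lower in every 5ELKO library. Without ELKO 3 the 8 differences were -0.78 to -0.52, without ELKO 2 they were 0.12 to 0.48 and without ELKO 1 they were 0.01 to 0.37, so their direction moved with single libraries.

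The effect of the deletion with amyloid minus that without it, the interaction, was -0.86 to -0.52 for the 8 genes (SE 0.586 to 0.898) and 0.28 for Gpr149 (SE 0.137, 95% interval -0.01 to 0.57). 0 members passed an adjusted p of 0.05 in limma, where 0% of genes did, and 0 an unadjusted one, where 2.73% did. The adjusted p was 0.9996 for the 8 genes, whose interaction was -0.34 to 0.00 without EL 3 and -1.58 to -1.08 without ELKO 3. The 4 two-group comparisons share libraries, so their values are not separate evidence.

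**Figure D4:**
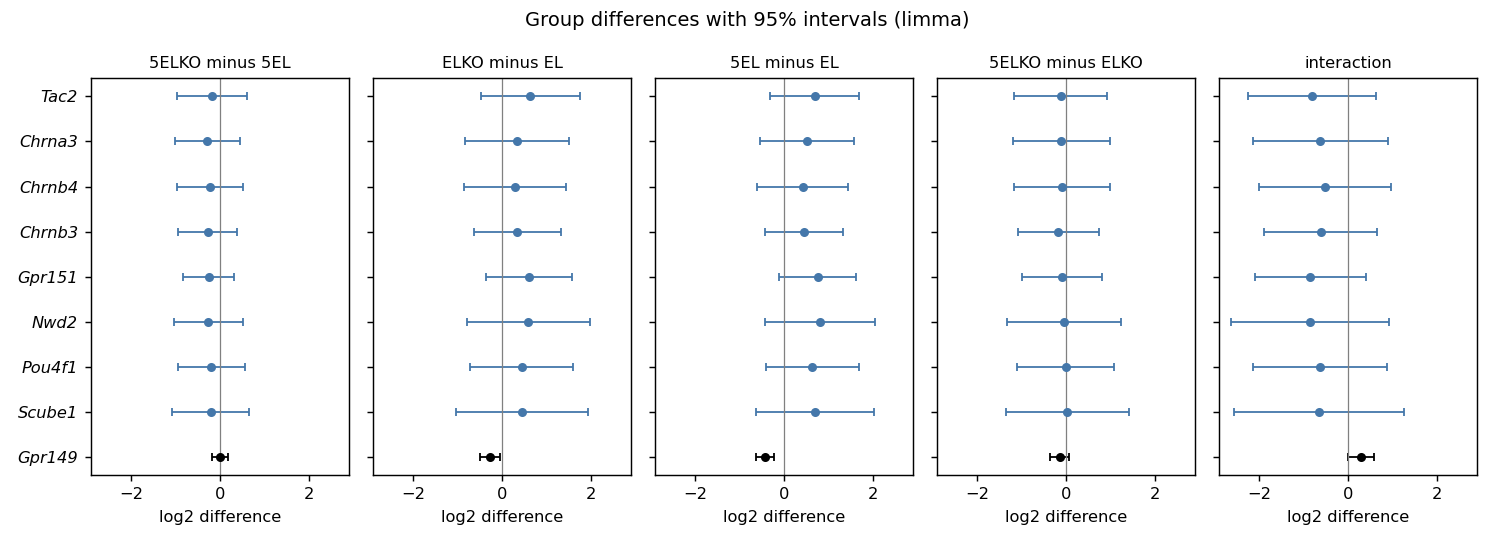
Log2 difference (x axis, points) with 95% intervals (bars) of the 9 genes (y axis) in the 4 group comparisons and the interaction, from limma. The intervals of the 8 genes other than Gpr149 cross 0 in every panel, and those of Gpr149 lie below 0 in ELKO minus EL and in 5EL minus EL.

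Of the other listed genes, 0 passed an adjusted p of 0.05 in limma in any of the 5 contrasts. Among the 11 tested genes of the medial habenula list, 4 had an unadjusted p under 0.05 in 5EL against EL, all higher, where 7.70% of all genes had one in either direction. They were Tac1 (0.62, SE 0.230), Kctd8 (0.61, SE 0.266), Gng8 (0.45, SE 0.197) and Adcyap1, the precursor of the peptide PACAP (0.40, SE 0.165). Each of them was lowest in EL 3. In 5ELKO against ELKO, Isl1 of this list had an unadjusted p under 0.05 (0.51, SE 0.211), where 2.37% of all genes did. Adcyap1 (-0.56, SE 0.239) and Kctd12 (0.20, SE 0.0905) had one in the interaction, where 2.73% of all genes did. The 4 cholinergic genes had 0 with an unadjusted p under 0.05 in any of the 5 contrasts, and their medians ran in the sign of the members' medians in each, -0.09, 0.20, 0.26, -0.04 and -0.31. The 6 tested nicotinic subunits also had 0, with medians of -0.06 to 0.05.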

How the data were processed

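RNA from dissected thalamus was sequenced as polyA libraries. Per the study's methods and the submitters' processing notes, the authors trimmed reads with Trimmomatic 0.39, checked them with FastQC 0.11.9, aligned to GRCm38 with HISAT2 2.2.1, sorted with SAMtools 1.16.1, counted read pairs over exons per gene name without strand with featureCounts 2.0.3, and used DESeq2 1.38.3. The authors deposited log2 values for 29659 genes per library (-2.27 to 18.98). The transform is not given in the sources used here.

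The members and marker lists were chosen with earlier results of these data known. Genes reaching a log2 value of 3.32 (10 before the logarithm) in 4 of 9 libraries (5ELKO against 5EL) or 3 of 15 (all else) were tested with limma 3.58.1 in R 4.3.3 (trend, two-sided, Benjamini-Hochberg over all genes). P-values measure the spread between these libraries. The named genes were the 9 members, the 10 genes most alike, up to 3 widest-ranging genes of some lists and Lilrb4a. Further list genes were named after their values were seen. On simulated data with 200 genes changed by 1.5 (log2), 99% were recovered over 15747 genes for 5ELKO against 5EL. EL and ELKO libraries with the same number varied in the same direction around their group means (r of 0.453, 0.325 and 0.742 over all genes tested), which is where the pairing of these groups comes from. Alternatives varied the filter, the variance prior, scaling, the replicate block and the libraries. Coordinates came from GENCODE M21 and figures from matplotlib 3.10.9.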

Additional observations from a re-analysis of the deposited data

Results flagged for a closer look

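In the 5EL group, Gpr149 was highest in library 5EL 4 at 6.63, while the other 4 libraries lay between 6.20 and 6.27. The gap to the nearest library was 0.836 of the range of the group, above Dixon's critical value for 5 samples. It was 1 of 18 combinations of gene and group that could be checked, and chance gives about 1 in 20. The difference of Gpr149 between 5EL and EL stayed between -0.51 and -0.35 when each library was left out in turn.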

How the results depend on the processing

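No member passed an adjusted p of 0.05 in limma under any of the alternatives run, and of 1053 values of single members 65 changed sign. The deposited values give no counts, so the precision of a gene cannot be read from depth. With both choroid plexus libraries left out, the members with an unadjusted p under 0.05 numbered 5 in 5ELKO against 5EL (0 with all libraries), 0 in ELKO against EL (1) and 3 in 5EL against EL (1). With the mean level of Chat, Slc18a3 and Slc5a7 as a covariate, chosen after seeing that it moved with the members and so bound to shrink their differences and errors, they numbered 2, 3 and 1 in ELKO against EL, 5EL against EL and the interaction, and with recentred libraries 1 in the interaction. All-gene calls in 5ELKO against 5EL were 3, and fell to 1 with no filter, 1 with the replicate block and 0 with all 15 libraries in one fit. In 5EL against EL they were 0, and 1 with no filter. For the 5 members called in 5ELKO against 5EL without the choroid plexus library 5EL 1, the share of all genes was 3.07%. For the other member counts under alternatives the shares are not given, so these counts have no background beside them.

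The replicate block changed no call for a member. With it the member differences in ELKO against EL, whose same-numbered libraries varied together, were -0.28 to 0.63. The genes with an unadjusted p under 0.05 in limma numbered 997 there, against 372 without the block. Same-numbered libraries of the other comparisons did not all deviate together, with r of -0.24 to 0.14 in 5ELKO against 5EL, 0.05 to 0.23 in 5EL against EL and -0.32 to 0.21 in 5ELKO against ELKO. Signs that changed under the block were those of Gpr149 in 5ELKO against 5EL (-0.0089) and of Gpr151 (0.0078), Nwd2 (0.061) and Pou4f1 (0.14) in 5ELKO against ELKO.

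Without the choroid plexus libraries, the sign changed for Gpr149 in 5ELKO against 5EL (-0.027), for Chrna3 (-0.038) and Chrnb4 (-0.066) in ELKO against EL, and in 5ELKO against ELKO for Tac2 (0.18), Chrna3 (0.27), Chrnb4 (0.26), Chrnb3 (0.12), Gpr151 (0.22), Nwd2 (0.32) and Pou4f1 (0.36). With the cholinergic covariate it changed for Scube1 in 5ELKO against 5EL (0.0050), Chrnb4 in ELKO against EL (-0.016) and in 5EL against EL (-0.052), and Pou4f1 in 5ELKO against ELKO (0.0059). Without EL 3 and ELKO 3, a pair also chosen after seeing the data, it changed for Chrna3 (-0.020) and Chrnb4 (-0.070) in 5EL against EL and Scube1 in 5ELKO against ELKO (-0.76). The cause was not tested.

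Leaving out each library in turn gave these ranges. In 5ELKO against 5EL, the fit with 5 members called was that without 5EL 1, where 3.07% of all genes were called. The shares of all genes in the other fits are not given, so the other member counts have no background beside them. In 5ELKO against 5EL, members with an unadjusted p under 0.05 numbered 0 to 5 and all-gene calls 0 to 4, and the sign changed for Tac2 (-0.55 to 0.013), Chrnb4 (-0.52 to 0.023), Pou4f1 (-0.48 to 0.0052), Scube1 (-0.55 to 0.047) and Gpr149 (-0.027 to 0.081). In ELKO against EL, members with an unadjusted p under 0.05 numbered 0 to 3 and all-gene calls 0 to 1, and the sign changed for Chrna3 (-0.20 to 0.93), Chrnb4 (-0.19 to 0.86), Chrnb3 (-0.0062 to 0.85), Nwd2 (-0.088 to 1.32) and Scube1 (-0.21 to 1.24). In 5EL against EL, members with an unadjusted p under 0.05 numbered 1 to 3 and all-gene calls 0 to 31, and the sign changed for Chrna3 (-0.020 to 0.83) and Chrnb4 (-0.070 to 0.74). In 5ELKO against ELKO, members with an unadjusted p under 0.05 numbered 0 to 0 and all-gene calls 0 to 2, and the sign changed for Tac2 (-0.57 to 0.18), Chrna3 (-0.69 to 0.27), Chrnb4 (-0.66 to 0.26), Chrnb3 (-0.68 to 0.12), Gpr151 (-0.52 to 0.22), Nwd2 (-0.78 to 0.32), Pou4f1 (-0.63 to 0.36) and Scube1 (-0.76 to 0.48). In the interaction, members with an unadjusted p under 0.05 numbered 0 to 2 and all-gene calls 0 to 0, and the sign changed for Scube1 (-1.45 to 0.0032). The 31 all-gene calls in 5EL against EL came without EL 1. Of the 10 genes most alike, Syt6 had r = 0.994 with group means subtracted.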
